A study of Mus musculus with 24 samples.

Results

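The change in the lung transcriptome of Tnfr+/+ mice between 24 and 48 h of ozone (O3) was measured by setting the 3 arrays made after 48 h directly against the 3 made after 24 h. These 6 arrays were chosen by their labels, out of 24 arrays in 8 groups of 3. Male mice of 6 to 8 weeks breathed 0.3 ppm O3 without interruption for 24, 48 or 72 h, or filtered air in a chamber of their own, and were killed when the exposure ended, so the later time is a longer exposure and not a recovery. RNA came from left lung homogenates and was hybridized to MOE430A arrays of Affymetrix, each array holding a single mouse, so the replicates were separate animals. Tnfr+/+ mice were C57BL/6J, and Tnfr-/- mice, which lacked both TNF receptors (TNFR1 and TNFR2) in every cell, were exposed in the same way. The Tnfr-/- arrays were used here to ask whether the same step was present in lungs whose levels do not enter the Tnfr+/+ step. They do enter the estimate of spread behind the p-values of both steps, so these p-values are not independent. Values are MAS5 signals after quantile normalization, in arbitrary units, and a step is the log2 signal at 48 h minus that at 24 h.

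O3 oxidizes the lining fluid and the membranes of the airway and alveolar surface, and the first response of the lung is made of antioxidant, acute phase and chemokine genes. Injured epithelium is replaced by division of the cells that survive, and macrophages gather in the distal airways and clear debris. In a dividing cell the genes of DNA synthesis are switched on first, largely through E2F sites, and those of mitosis follow. Mitosis genes are known for promoters that carry CCAAT boxes, bound by NF-Y, and an element called CHR, bound by MuvB complexes, close to the start of transcription.

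In all, 31 genes passed an adjusted p under 0.05 between the 2 times, 26 higher and 5 lower at 48 h. Of the 26, 14 belonged to lists of mitosis or DNA replication genes. Promoter windows are shown because these 2 lists held most of the genes called higher. RefSeq promoters (GRCm38.p6, from 250 bases before to 50 after the start) were found for 20 of the 26 genes. The motifs searched on both strands were the CHR (TTTGAA or TTCGAA) and the CCAAT box (CCAAT), which do not overlap. The CHR was in 77.4% and the CCAAT box in 77.4% of the 31 mitosis promoters found, against 19.4% and 37.9% of all 27025 promoters. Both motifs were in 22 of the 31 mitosis promoters (71.0%), in 9 of the 20 promoters of genes called higher, in 5.75% of the 9253 promoters of genes tested and in 7.70% of all promoters. E2F sites (TTTGGCGC, TTTCGCGC, TTTGGCGG or TTTCCCGC) were in 13 of 35 DNA replication promoters (37.1%), in 2 of the 31 mitosis promoters and in 2.42% of all promoters. These matches describe letters in the windows and are not evidence of binding.

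In the 120 bases just before the start of transcription, 4 genes called higher held both motifs, namely Cdc20 at chr4:118437344-118437463 (minus strand), Ube2c at chr2:164769809-164769928 (plus strand), Kif22 at chr7:127042421-127042540 (minus strand) and Cks1b at chr3:89418292-89418411 (minus strand). Ccnb2, at chr9:70421555-70421674 (minus strand), held 3 CCAAT boxes and no CHR in this window. Lcn2, at chr2:32387740-32387859 (minus strand), is the gene of a secreted inflammatory protein that was called higher without being a cell cycle gene, and its window held neither motif. The windows of Birc5 and Anln, which are genes of division called higher, held neither motif as well. Those of Plk1, Cdca3, Rrm2, Uhrf1, Mcm5, Mcm7 and Diaph3 held CCAAT boxes and no CHR, so the windows printed are a selection. The sequences read 5′ to 3′ on the strand of the gene and end at the base before the start, with CHR and CCAAT matches in capitals (TTCAAA and ATTGG are the matches on the other strand).
Cdc20: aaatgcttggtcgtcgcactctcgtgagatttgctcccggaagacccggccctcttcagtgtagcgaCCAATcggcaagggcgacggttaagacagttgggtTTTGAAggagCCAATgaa
Ube2c: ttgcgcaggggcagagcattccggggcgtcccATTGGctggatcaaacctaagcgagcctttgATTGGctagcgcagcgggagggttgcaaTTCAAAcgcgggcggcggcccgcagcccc
Kif22: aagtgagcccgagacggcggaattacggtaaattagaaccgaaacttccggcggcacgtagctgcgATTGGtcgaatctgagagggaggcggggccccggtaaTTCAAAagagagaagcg
Cks1b: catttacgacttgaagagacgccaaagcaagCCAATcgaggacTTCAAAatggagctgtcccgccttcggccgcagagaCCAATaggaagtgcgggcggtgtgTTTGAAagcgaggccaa
Ccnb2: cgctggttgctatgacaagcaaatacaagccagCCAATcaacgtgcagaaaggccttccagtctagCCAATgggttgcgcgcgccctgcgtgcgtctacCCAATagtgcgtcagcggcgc
Lcn2: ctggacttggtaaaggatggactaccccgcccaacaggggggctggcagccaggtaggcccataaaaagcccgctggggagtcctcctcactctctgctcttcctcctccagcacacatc
The CHR began 18 bases before the start in Cdc20, 29 in Ube2c, 17 in Kif22 and 17 in Cks1b, with a further CHR 77 bases before the start of Cks1b.

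The 6 arrays were of like brightness, with total signals of 15173000 to 15457000 at 48 h and 15304000 to 15539000 at 24 h. Correlation across probe sets ranged between 0.930 and 0.953 for pairs of a 48 h and a 24 h array, hardly below the 0.935 to 0.957 among 48 h arrays. The defining lung markers Sftpc and Scgb1a1 were in the top percentile of every one of the 6 arrays. Signs of RNA quality moved with the time. The ratio of 3′ to 5′ signal was 1.30 to 1.33 at 48 h and 1.53 to 1.74 at 24 h for Gapdh, without overlap, and 1.13 to 1.29 against 1.31 to 1.95 for actin. On the Tnfr+/+ air arrays the ratio was 1.31 to 1.56 for Gapdh and 1.26 to 1.55 for actin, which overlap both times. The part of this ratio in the results, among them the classes against air, was not tested. In Tnfr-/- lungs the Gapdh ratio was 1.01 to 1.13 at 48 h and 1.03 to 1.22 at 24 h, with overlap. On the Tnfr+/+ 72 h array 1 it was 4.45. That array is not part of the step, but it enters the shared spread and the 72 h values given below. The 48 h array 2 stood apart in genes of fat and thymus. The 15 fat genes tested averaged 7.68, 10.1 and 7.56 (log2 signal) on the 48 h arrays 1, 2 and 3, against 8.21, 8.01 and 7.97 at 24 h. Ucp1, the uncoupling protein of brown fat, had signals of 11.6, 416 and 14.3 at 48 h and of 12.2, 9.66 and 9.11 at 24 h. The 7 thymus genes averaged 5.96, 7.72 and 5.92 at 48 h and 5.69, 6.30 and 6.59 at 24 h, and Rag1, needed for antigen receptor rearrangement, was at 421 on that array. Some results are therefore given with and without it, and Tnfr+/+ steps and counts given once include it. Heart muscle genes were detected on all 6 arrays, and the list's mean level was 8.30 to 8.78 at 48 h and 8.74 to 9.10 at 24 h, which overlap. In lung homogenates, fewer cells of a type and less RNA per cell cannot be told apart.

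Of 20537 probe sets tested, 41 were called (0.2%). Of these, 33 were called higher at 48 h (0.161%) and 8 lower (0.039%), and all 41 had 3 and 3 arrays that did not overlap, as did 6.78% of all probe sets in the higher and 7.09% in the lower direction. They stood for 26 genes called higher (0.224% of 11597 genes) and 5 called lower (0.0431%). The study's own threshold, an unadjusted p under 0.01, was passed upward by 353 probe sets (1.72%) and downward by 226 (1.1%), which gave 191 genes higher (1.65%) and 135 lower (1.16%). The median step over all genes was -0.02. The calls rested on the spread shared by all 8 groups. limma fitted to the 6 arrays alone called 0 probe sets, with 748 higher and 658 lower where the unadjusted p was under 0.05, and the 12 Tnfr+/+ arrays alone also gave 0, with 730 and 640. Single arrays also mattered. The 33 calls became 13 without the 48 h array 1, 13 without the 48 h array 2 and 18 without the 24 h array 2, and the 8 lower calls became 2 without the 48 h array 2 and 5, 1 and 3 without the 24 h arrays 1, 2 and 3. The call was kept whichever of the 6 arrays was left out by 9 genes, AA545190, Birc5, Ccnb2, Cdc20, Cdca3, Mki67, Plk1, Rrm2 and Ube2c. Ctla2b lost it without the 48 h array 2 (adjusted p = 0.066) and Tmem37 without the 24 h array 2 (adjusted p = 0.063), while Ctsh, Itgb2, Mcm5, Pbk and Tlr2 lost it in all 6 of these fits and the remaining 15 genes in 3 to 5 of them. Of the 31 genes, 15, 10 and 20 were still called without the 48 h arrays 1, 2 and 3, and 15, 13 and 15 without the 24 h arrays 1, 2 and 3. Steps kept their sign in every one of these fits, and no adjusted p was above 0.221. With the mean of all probe sets of a gene in place of 1 probe set, 22 of the 31 were still called, and Cdca3, Cdc20, Ccna2, Incenp, Mcm7, Recql, Uhrf1, Plet1 and Kif22 were not.

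Genes of mitosis rose between the 2 times. Of 37 mitosis and cell division genes tested, 10 were called higher and none lower, against 0.224% of genes called higher, and 26 of 37 were higher at an unadjusted p under 0.01, against 1.65% of genes. All but Ttk had a positive step, and the median step was 1.01. The mean level of the list was 7.92, 7.87 and 7.54 (log2 signal) on the 48 h arrays, against 6.65, 6.83 and 6.65 on the 24 h arrays, so the groups lay far apart. Relative to air, the list's median was -0.02 at 24 h, 1.06 at 48 h and 1.60 at 72 h. Without the 48 h array 2, 7 members were called, 19 were higher at an unadjusted p under 0.01 and the median step was 1.04.

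Ccnb2, the B-type cyclin that partners Cdk1 at entry into mitosis, had signals of 300.1, 371 and 318 at 48 h and of 118, 88.7 and 80.3 at 24 h. Every 48 h lung lay far above the highest 24 h lung, and the rise was 3.48-fold (step 1.80, SE 0.19, adjusted p = 0.00015). Birc5, or survivin, a member of the chromosomal passenger complex, had 419, 499 and 413 at 48 h, against 125, 163 and 66.6 at 24 h (step 2.00, SE 0.30, adjusted p = 0.0067). Incenp, the scaffold of the same complex, had 353, 340.4 and 305 at 48 h and 168, 218 and 193 at 24 h, a smaller rise of 1.73-fold (adjusted p = 0.021). Cdc20 activates the anaphase promoting complex and Ube2c loads ubiquitin for it. Cdc20 had 532, 521 and 576 at 48 h, against 194, 199.8 and 209.8 at 24 h, and Ube2c had 505, 537 and 505 at 48 h, against 201, 226 and 215 at 24 h. Replicates of both genes were tight at each time, and the steps were 1.43 (SE 0.22, adjusted p = 0.0071) for Cdc20 and 1.27 (SE 0.18, adjusted p = 0.0046) for Ube2c. The other Cdc20 probe sets had steps of 0.85 and 0.26, neither called.

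The remaining members called higher were spread over the phases of division. Mki67, whose product coats mitotic chromosomes and is the usual marker of proliferating cells, had 518, 579 and 358 at 48 h, against 155, 211 and 97.8 at 24 h, a 3.23-fold rise (adjusted p = 0.0046). Plk1, a kinase of mitotic entry and exit, had 204, 245 and 248 at 48 h and 130.2, 103 and 126 at 24 h (1.95-fold, adjusted p = 0.0049). Steps of the rest were 1.71 for Cdca3, a promoter of mitotic entry, 1.51 for the chromokinesin Kif22, 1.13 for the cyclin Ccna2 and 0.96 for the mitotic kinase Pbk. The other probe sets of Cdca3 had steps of -0.34 and 0.11 and that of Ccna2 one of 0.26, all with overlapping arrays. Top2a, Nuf2 and Bub1, a topoisomerase, a kinetochore subunit and a checkpoint kinase, had steps of 0.91, 2.25 and 2.39 and did not pass after adjustment (adjusted p = 0.068, 0.056 and 0.14), although none of the 3 overlapped between the times. Cdk1, the kinase at the head of the program, had signals of 530.1, 342 and 70.1 at 48 h and of 31.1, 227 and 118 at 24 h. These overlapped, and its step of 1.31 was far from the threshold (adjusted p = 0.65).

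DNA replication genes moved less. Of 42 tested, 4 were called higher and none lower, against 0.224% of all genes called higher. At an unadjusted p under 0.01, 9 were higher, against 1.65% of genes, and the median step was 0.35. Rrm2, the regulated subunit of ribonucleotide reductase, had signals of 616, 619 and 399 at 48 h and of 184, 226 and 200.2 at 24 h, a 2.64-fold rise (adjusted p = 0.0046). Uhrf1, which recruits the maintenance DNA methyltransferase to newly copied DNA, had 214, 206 and 243 at 48 h, against 75.7, 117 and 65.7 at 24 h (2.64-fold, adjusted p = 0.028). The helicase subunits Mcm5 and Mcm7 rose by steps of 0.89 (SE 0.17, adjusted p = 0.030) and 0.70 (SE 0.13, adjusted p = 0.026). Mcm7 had signals of 1242, 1423 and 1435 at 48 h and of 901, 747 and 873 at 24 h, without overlap. The other Mcm7 probe sets had steps of 0.59, 0.38 and -0.02, none called. Pcna, the sliding clamp of the polymerases, had 3419, 3409 and 2994 at 48 h and 2343, 2501 and 2443 at 24 h, which did not overlap, but its step of 0.43 did not pass (adjusted p = 0.39). Against air, the list's median was 0.13 at 24 h and 0.52 at 48 h. Without the 48 h array 2, 1 member was called and the median was 0.39. The genes of division outside both lists were Cks1b, a subunit of Cdk complexes (step 0.87, SE 0.16, adjusted p = 0.030), Anln, an actin scaffold of the cleavage furrow (1.49, SE 0.26, adjusted p = 0.021), Incenp and the formin Diaph3.

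**Figure D1:**
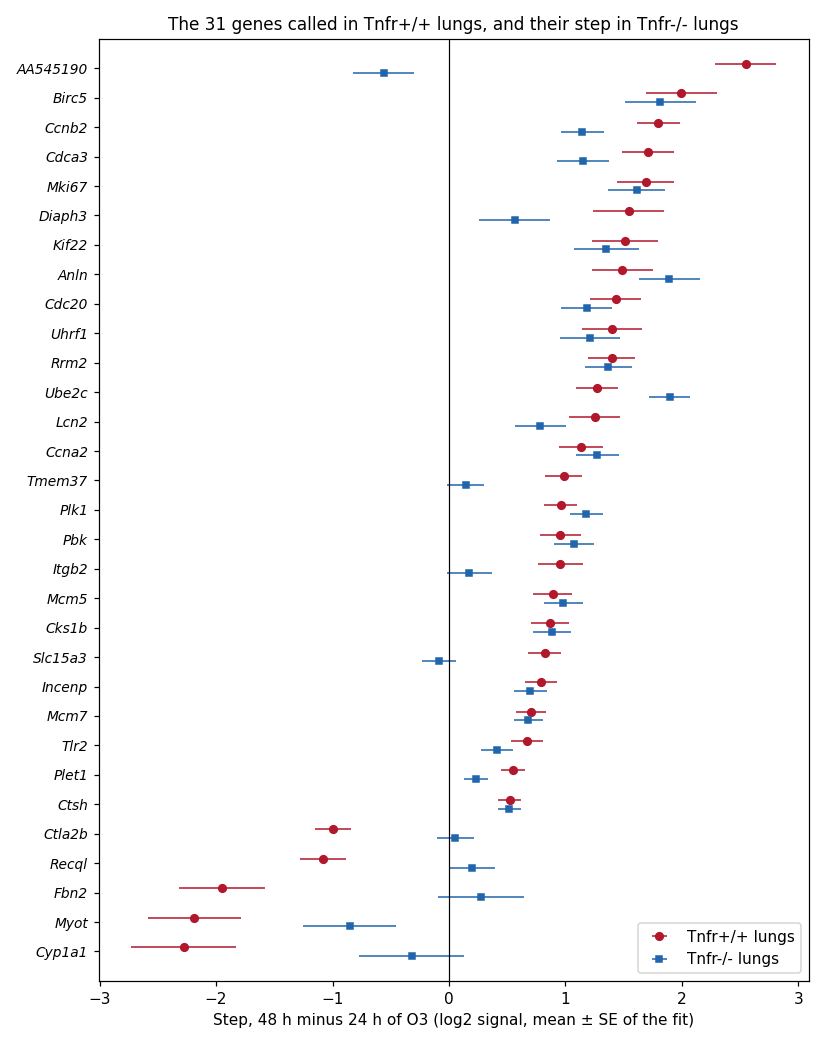
Step of each of the 31 called genes (48 h minus 24 h of O3, log2 signal, mean ± SE of the fit) in Tnfr+/+ lungs (red circles) and Tnfr-/- lungs (blue squares), 3 arrays a group. Most mitosis and replication genes lie right of 0 in both genotypes, close together for Birc5 (2.00 in Tnfr+/+ and 1.82 in Tnfr-/- lungs) and apart for Ccnb2 (1.80 and 1.15), while the 5 genes at the bottom, lower in Tnfr+/+ lungs, lie nearer 0 in Tnfr-/- lungs.

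The other genes called higher had varied functions, and 6 of them are described here. Lcn2, or lipocalin 2, binds bacterial siderophores and is made by injured epithelium and neutrophils. Its signals were 4596, 4089.8 and 3415 at 48 h and 1471, 1679.7 and 1931 at 24 h, a 2.38-fold rise (SE of the log2 step 0.22, adjusted p = 0.021). Tlr2, the receptor for bacterial lipoproteins, had 540.2, 474 and 549.9 at 48 h, against 349, 308 and 325 at 24 h (1.59-fold, adjusted p = 0.045). Itgb2, the beta chain of the leukocyte integrins, had 1564, 1524 and 1888 at 48 h, against 932, 742 and 893 at 24 h (1.94-fold, adjusted p = 0.048). Groups did not overlap for any of these genes. Slc15a3, a lysosomal transporter of histidine and peptides, had 279.7, 293 and 281 at 48 h and 175, 186 and 128 at 24 h (1.77-fold, adjusted p = 0.020). Ctsh, cathepsin H, a lysosomal protease that takes part in the processing of surfactant protein B, had 6794, 7455 and 7165 at 48 h and 4900.5, 5191 and 4798 at 24 h (1.44-fold, adjusted p = 0.030). Tmem37, a membrane protein related to the gamma subunits of calcium channels, had 1015, 1223 and 1794 at 48 h and 754, 602 and 634 at 24 h (1.98-fold, adjusted p = 0.010).

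The neutrophil list as a whole did not move with Lcn2. Of 16 neutrophil genes 1 was called, Lcn2 itself (0 without the 48 h array 2), the median step was 0.15, and the mean level was 8.16 to 8.48 at 48 h and 7.92 to 8.23 at 24 h, with overlap. Of 32 acute phase and inflammatory genes, Lcn2 and Tlr2 were called, against 0.224% of all genes called higher, and the median step was 0.22. Without the 48 h array 2, 0 were called (limma) and the median was 0.09. At 24 h against air 17 probe sets were called (0.0828%). The 4 genes described here are a selection from them, and their steps did not pass. AA545190, described below, is also among the probe sets called at 24 h, and its step was called. Timp1, an inhibitor of matrix proteases, had signals of 2108, 1924 and 1756 at 48 h and of 1375, 1918 and 1548 at 24 h, which overlap (step 0.27, adjusted p = 0.77), and Lrg1, an acute phase glycoprotein, had a step of 0.59 (adjusted p = 0.39). The metallothionein Mt2 had a step of -0.36 (adjusted p = 0.78) and the chemokine Ccl17 one of 0.38 (adjusted p = 0.58).

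Genes of alveolar macrophages, the resident phagocytes of the air spaces, were mostly higher at 48 h. Of 23 tested, 1 was called (Plet1), against 0.224% of all genes called higher. At an unadjusted p under 0.01, 8 were higher and none lower, against 1.65% and 1.16% of genes. Krt19, 1 of these 8, is also in the squamous and keratin list. A positive step was found in 22 of the 23, and 15 had 48 h arrays all above the 24 h arrays, against 6.32% of all genes. The median step was 0.65. The mean level of the list was 9.35, 9.91 and 9.30 on the 48 h arrays, against 8.92, 8.95 and 8.83 on the 24 h arrays, so the array with fat genes was the highest, and 3 members of the list are also fat genes. Without that array the median was 0.39, 18 of 23 members had a positive step, 7 were higher at an unadjusted p under 0.01 and none was called (limma). Plet1, a membrane-anchored protein of alveolar macrophages and some epithelia, had signals of 1704, 1699 and 1849 at 48 h and of 1280.0, 1232 and 1076 at 24 h (1.47-fold, adjusted p = 0.029). Its other probe set had a step of 0.08 with overlapping arrays (adjusted p = 0.95). Marco, a scavenger receptor for inhaled particles, had 401, 606 and 578 at 48 h, against 147, 318 and 195 at 24 h, and its step of 1.31 did not pass (adjusted p = 0.068). Chil3, the chitinase-like protein Ym1, had 9382, 11842 and 7923 at 48 h, against 4979, 5199 and 6157 at 24 h (step 0.82, adjusted p = 0.082). Ctsk and Gpnmb, a lysosomal protease and a glycoprotein of lipid-laden macrophages, had steps of 0.85 and 1.13 (adjusted p = 0.083 and 0.097). Monocyte and interstitial macrophage genes had a median step of 0.02, with none of 19 called.

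Of 30 squamous and keratin genes of epithelial injury, 21 were higher and 9 lower in value at 48 h. None was called (limma), and the median step was 0.24. At an unadjusted p under 0.01, 7 were higher and none lower, against 1.65% and 1.16% of all genes. Without the 48 h array 2, 5 were higher at that threshold and the median was 0.13. The keratins Krt19 and Krt8, which mark alveolar cells in transition after injury, had steps of 0.87 and 0.63 (adjusted p = 0.099 and 0.18). Krt19, which is also counted in the alveolar macrophage list, had signals of 3709, 3966 and 7089 at 48 h. At 24 h it had 2847, 2594 and 2333, so the 48 h array 3 was far above the rest. Sprr1a, a precursor of the cornified envelope, had 879.7, 762 and 1724 at 48 h and 444, 670.3 and 549 at 24 h, again highest on the 48 h array 3 (step 0.94, adjusted p = 0.27). Smooth muscle genes had a median step of -0.38 (-0.39 without the 48 h array 2), with 16 of 18 negative. Of these, 3 had an unadjusted p under 0.01 (2 without that array), against 1.16% of all genes. The mean level was 8.45, 8.26 and 8.28 at 48 h and 8.67, 8.82 and 8.62 at 24 h. Mylk, myosin light chain kinase, had 2369.6, 1574 and 1582 at 48 h and 3029.6, 2744 and 2719 at 24 h (step -0.65, adjusted p = 0.083). Heart muscle genes had a like median step of -0.37, with 19 of 23 lower in value, and the part of heart tissue in the smooth muscle values was not tested. In Tnfr-/- lungs the median step was 0.15 for smooth muscle genes and -0.24 for heart muscle genes. There 0 smooth muscle genes were lower and 1 was higher at an unadjusted p under 0.01. Their difference of the steps (Tnfr+/+ minus Tnfr-/-) had a median of -0.54. Ciliated cell genes of Tnfr+/+ lungs had a median step of -0.38 over 11 genes (-0.29 without the 48 h array 2). Their mean levels were 8.71 to 9.04 at 48 h and 9.12 to 9.37 at 24 h. NRF2 target genes, the antioxidant response, had a median step of -0.07 over 31 genes, and 3 were lower at an unadjusted p under 0.01 (1.16% of all genes), namely Gpx2 (-0.76), Nqo1 (-0.67) and Gsta2 (-0.49).

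**Figure D2:**
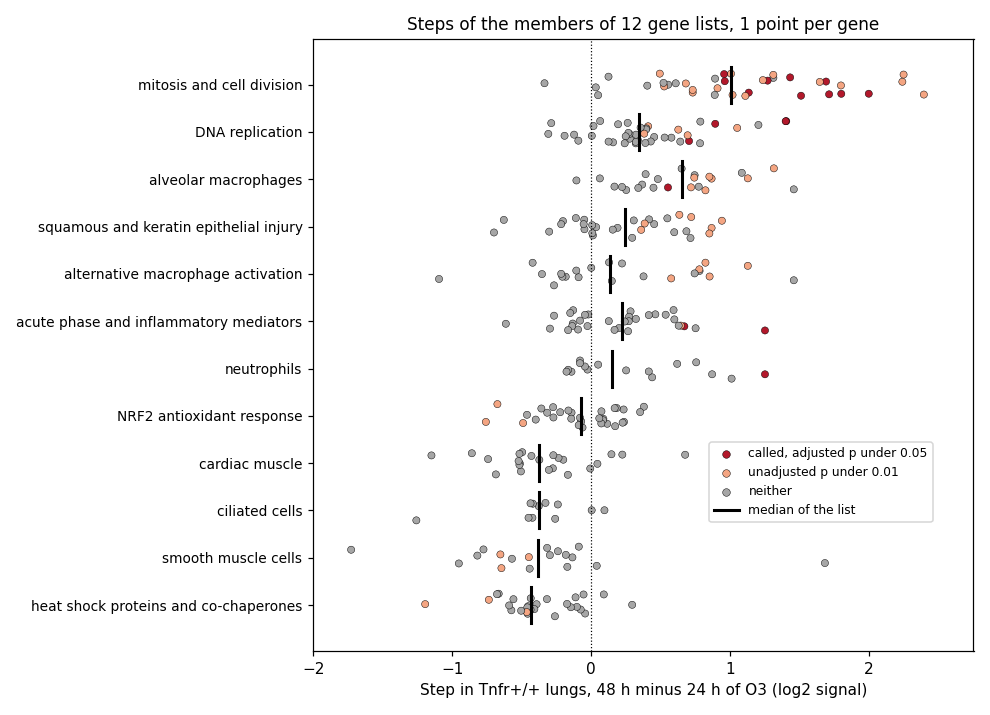
Step in Tnfr+/+ lungs (48 h minus 24 h of O3, log2 signal) of each gene of 12 lists, 1 point a gene, red where the adjusted p was under 0.05, orange where the unadjusted p was under 0.01, with a bar at the median of the list. The mitosis list lies almost wholly right of 0 (median 1.01), the replication list less so (0.35), and the smooth muscle list mostly left of it (-0.38).

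The 5 genes called lower at 48 h had no list in common. Cyp1a1, the cytochrome P450 that is the classic target of the aryl hydrocarbon receptor, had signals of 437, 128 and 169 at 48 h and of 908, 1297 and 917 at 24 h, a fall to 0.206 of the 24 h level (step -2.28, SE 0.45, adjusted p = 0.044). The 48 h arrays were all below the 24 h arrays, with the 48 h array 1 the highest of them. Ctla2b, related to the propeptides of cysteine proteases, had 400.0, 262 and 335 at 48 h and 692, 655 and 613 at 24 h (step -0.996, SE 0.16, adjusted p = 0.0099). Recql, a DNA helicase, had 155, 111 and 96.1 at 48 h and 259, 233 and 258 at 24 h (step -1.08, SE 0.20, adjusted p = 0.028). Its other probe sets had steps of 0.21 and -0.15 with overlapping arrays, so the fall was seen by 1 of 3 probe sets. Myot, a protein of the sarcomere, and Fbn2, a fibrillin of elastic microfibrils, were dim. Myot had 7.35, 5.04 and 10.6 at 48 h and 37.7, 41.4 and 23.8 at 24 h, and Fbn2 had 10.7, 3.96 and 10.2 at 48 h and 28.6, 29.4 and 29.6 at 24 h. Steps were -2.19 and -1.95 (adjusted p = 0.027 and 0.030), and both calls were lost with a pseudocount of 32 before log2. Next in order of p among genes above the median level, and not passing, were Scn3b (step -1.01, adjusted p = 0.058), Gprasp1 (-0.70, adjusted p = 0.066) and Foxo3, a transcription factor of quiescence and stress resistance. Foxo3 had 1525, 1337 and 1631 at 48 h, against 2671, 2488 and 2410.1 at 24 h, without overlap (step -0.76, adjusted p = 0.067).

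Against air, most of the called genes started after 24 h. A gene was said to start where its 24 h level was not past an unadjusted p of 0.01 against air and its 48 h level was, in the direction of the step. It stopped where the 24 h level passed that threshold against the step and the 48 h level did not. A gene that stopped need not be back at air. It reversed where 24 h lay at least 0.3 (log2) on one side of air and 48 h past the threshold on the other. Over all probe sets, 1.72% passed that threshold at 24 h and 4.53% at 48 h against air. These classes use the 24 h and 48 h arrays of the step itself and are a description. Of the 31 genes, 20 started higher and 3 started lower (Cyp1a1, Myot and Fbn2). Some of them were off air at 24 h without passing, such as Lcn2 at 0.56 and Pbk at 0.44. The 3 that reversed upward, Ccnb2, Birc5 and Cdc20, were at -0.42, -0.57 and -0.37 at 24 h against air and at 1.38, 1.43 and 1.06 at 48 h. Birc5 had signals of 198, 180.3 and 125 in air, of 125, 163 and 66.6 after 24 h, of 419, 499 and 413 after 48 h, and of 435, 456 and 617 after 72 h of O3. The lower level at 24 h than in air was not past an unadjusted p of 0.01 for any of the 3 genes. Ctla2b reversed downward, at 0.31 against air at 24 h and -0.68 at 48 h. Itgb2 moved away from air without either time passing.

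Genes that stopped were AA545190, Diaph3 and Recql. AA545190, a transcript without an assigned function, had signals of 78.5, 72.0 and 72.9 in air, of 7.80, 18.5 and 8.18 after 24 h, of 49.0, 67.5 and 71.4 after 48 h, and of 56.9, 104 and 79.4 after 72 h, so that the 24 h lungs stood alone. Its step was 2.55 (SE 0.26, adjusted p = 0.00015) and its 24 h change against air -2.82 (adjusted p = 1.6e-05). Diaph3 was at -0.99 against air at 24 h and at 0.56 at 48 h, and Recql at 0.76 and at -0.32. Among genes with an unadjusted p under 0.01 for the step, 97 started higher and 62 lower, 17 stopped from below air and 14 from above, 4 reversed upward and 1 downward, and 8 went on rising and 2 on falling in value. For the rest neither time passed against air. Of these, 24 rose and 24 fell toward air, and 41 rose and 32 fell away from it. Those that went on included Retnla, a secreted product of alternatively activated macrophages. It had 19893, 22648 and 17642 at 48 h and 10151, 19164 and 12353 at 24 h, which overlap (step 0.58, adjusted p = 0.32), after a 24 h change against air of 2.37. Tnfrsf12a, which binds the cytokine TWEAK, went on with a step of 0.72 (adjusted p = 0.23) after 1.23 at 24 h. The 14 above air at 24 h included Gpx2, at 642, 667 and 509 at 48 h and 856, 1305 and 943 at 24 h (0.74 against air at 24 h and -0.02 at 48 h), and Nqo1, at 0.65 and -0.03. The next interval, 72 h against 48 h, had 0 probe sets called by limma (0%), while 825 were higher and 931 lower where the unadjusted p was under 0.05. The 72 h array 1, with its high Gapdh ratio, enters this comparison, and its part there was not tested. Without it 53 probe sets were called between 24 and 48 h, against 41 with it.

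**Figure D3:**
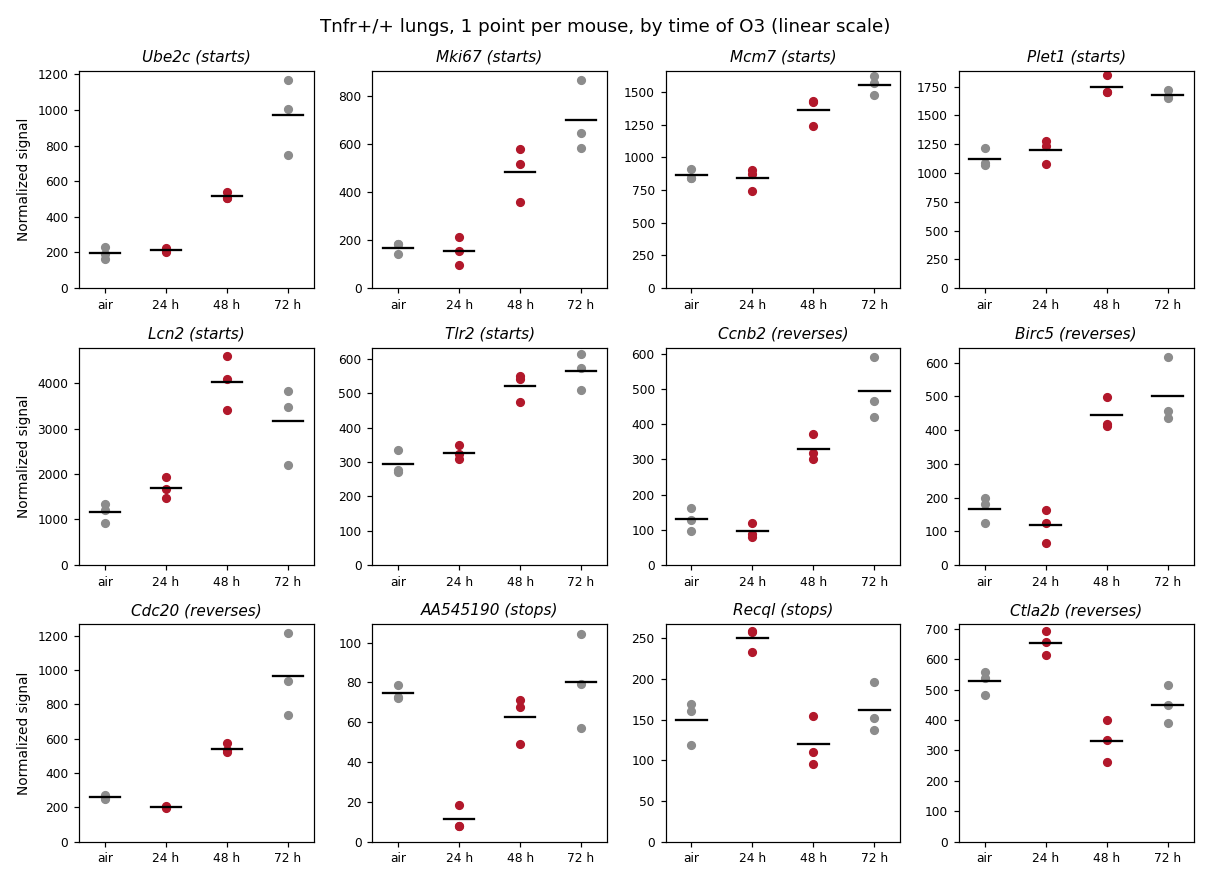
Normalized signal (linear scale from 0) of 12 called genes in Tnfr+/+ lungs in air and after 24, 48 and 72 h of O3, 1 point a mouse with a bar at the mean, and the 24 h and 48 h points in red. Ube2c, a gene that started, is near its air level at 24 h (505 to 537 at 48 h, 201 to 226 at 24 h), and AA545190 is low at 24 h alone.

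The step was measured again in Tnfr-/- lungs. Each gene had the same SE in both genotypes, because the fit shares the spread. Counts of genes that passed in Tnfr-/- lungs are therefore not independent of the Tnfr+/+ calls. Of the 26 genes called higher in Tnfr+/+ lungs, 24 had a step in the same direction in Tnfr-/- lungs, 18 were called there (0.287% of probe sets called higher in Tnfr-/- lungs) and 20 had an unadjusted p under 0.01, against 1.65% of genes higher at that threshold. Their median step was 1.19 in Tnfr+/+ and 1.03 in Tnfr-/- lungs, and the difference between the genotypes was called for 1 of 26, AA545190. Of the 191 genes higher at an unadjusted p under 0.01, 149 had the same direction in Tnfr-/- lungs and 58 (30.4%) passed that threshold there, with a median step of 0.79 in Tnfr+/+ and 0.32 in Tnfr-/- lungs. The mitosis list had a median step of 1.01 in Tnfr+/+ and 1.15 in Tnfr-/- lungs. In the latter 17 of its 37 members were called higher, against 0.287% of probe sets. Single genes varied. Mki67 had steps of 1.69 in Tnfr+/+ and 1.61 in Tnfr-/- lungs, a difference of 0.08 (SE 0.34), while Ccnb2 had 1.80 and 1.15 (difference 0.65, SE 0.27), Cdca3 1.71 and 1.15 (0.56, SE 0.32) and Ube2c 1.27 and 1.89 (-0.63, SE 0.25), none of which passed after adjustment. Of the 5 genes called lower, 2 had the same direction in Tnfr-/- lungs and none was called or had an unadjusted p under 0.01 there. The difference of steps contains the Tnfr+/+ step by which these genes were picked, so it is no independent test of them, and it passed after adjustment for none of the 5. Only 4 probe sets had a called difference of the steps (0.0195%), those of AA545190, Egr1, Hsph1 and Chordc1.

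Steps of heat shock proteins had opposite signs in the genotypes. Of 27 chaperones and co-chaperones tested, 25 had a negative step in Tnfr+/+ lungs (median -0.44), and none was called (limma). At an unadjusted p under 0.01, 3 were lower, against 1.16% of genes. Without the 48 h array 2, 23 steps were negative, 2 genes were lower at that threshold and the median was -0.39. In Tnfr-/- lungs the median was 0.56, with 3 called higher, against 0.287% of probe sets. The difference of the steps had a median of -0.95, and 12 of 27 were lower at an unadjusted p under 0.01, against 0.779% of probe sets. The mean level of the list was 11.07, 11.02 and 10.96 at 48 h and 11.50, 11.55 and 11.11 at 24 h in Tnfr+/+ lungs, and 11.06 to 11.34 at 48 h and 10.48 to 10.64 at 24 h in Tnfr-/- lungs, so the lowest group was the Tnfr-/- lungs at 24 h. Hsph1, the Hsp110 nucleotide exchange factor of Hsp70, had signals of 3010.1, 2417 and 1721 at 48 h and of 5703, 7234 and 3637 at 24 h in Tnfr+/+ lungs (step -1.19, adjusted p = 0.17), and of 2079.8, 3298 and 3952 at 48 h and 606, 926 and 1026 at 24 h in Tnfr-/- lungs (step 1.85, adjusted p = 0.014). The difference was -3.05 (SE 0.45, adjusted p = 0.013). Chordc1, an Hsp90 co-chaperone, had 1211, 1454 and 1106 at 48 h and 2308, 2449 and 1593 at 24 h in Tnfr+/+ lungs, and 1243, 1456 and 1882 at 48 h and 525, 663 and 735 at 24 h in Tnfr-/- lungs. Its steps were -0.74 and 1.24 and their difference -1.98 (SE 0.31, adjusted p = 0.025). The heat shock element, searched as 3 units of GAA and TTC in turn with a gap of 2 bases between units, was in 3 of the 24 promoters of the list (12.5%) and in 0.529% of all promoters.

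**Figure D4:**
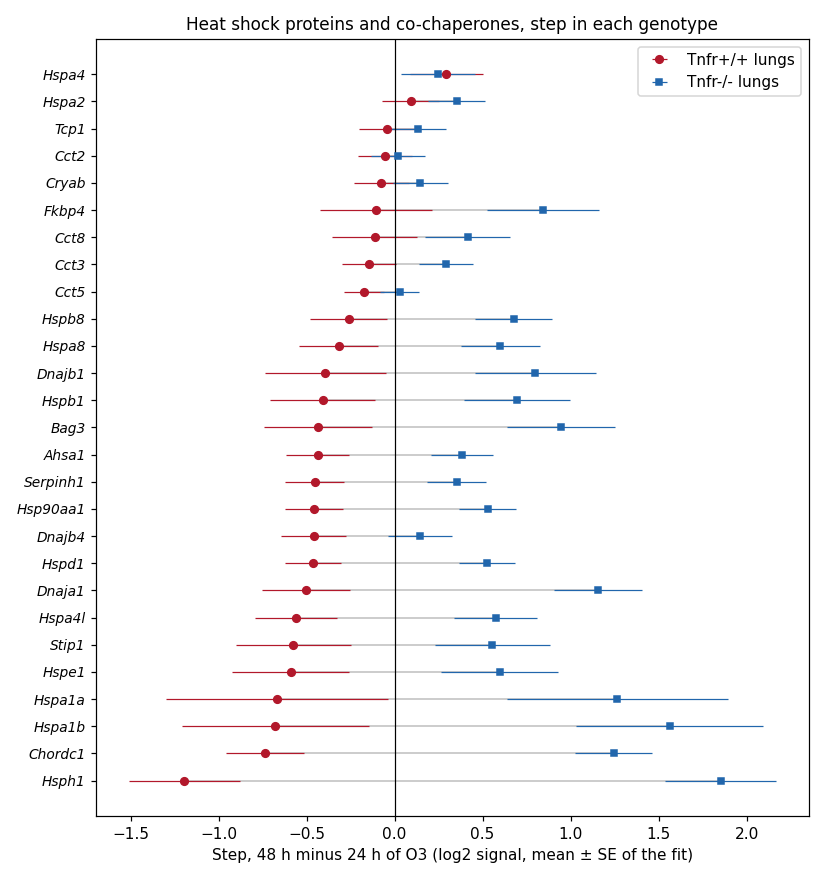
Step (48 h minus 24 h of O3, log2 signal, mean ± SE of the fit) of 27 heat shock proteins and co-chaperones in Tnfr+/+ lungs (red circles) and Tnfr-/- lungs (blue squares), 3 arrays a group. In 25 of 27 genes the Tnfr+/+ step is below 0, and the widest gap is that of Hsph1 (-1.19 in Tnfr+/+ and 1.85 in Tnfr-/- lungs).

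Immediate early genes, the first to answer growth factors and stress, differed between the genotypes as well. Of 29 tested, 2 were higher at an unadjusted p under 0.01 in Tnfr+/+ lungs, against 1.65% of genes. These were the proliferation factor Myc (step 0.97, adjusted p = 0.083) and Ier3 (0.86, adjusted p = 0.072). The median step of the list was 0.05 (0.16 without the 48 h array 2). In Tnfr-/- lungs the median was -0.49, with 8 lower at that threshold (1.56% of genes) and 4 called (0.0925% of probe sets called lower). Egr1, a zinc finger transcription factor, had signals of 1331, 1068 and 1214 at 48 h and of 1146, 1051 and 1009 at 24 h in Tnfr+/+ lungs, which overlap (step 0.17, adjusted p = 0.85). In Tnfr-/- lungs it had 1718, 1711 and 1093 at 48 h and 5103, 5703 and 5248 at 24 h (step -1.86, adjusted p = 9.4e-05). The difference of 2.03 (SE 0.27, adjusted p = 0.0045) thus lay in the high Tnfr-/- lungs at 24 h. B cell genes had a median step of 0.08 in Tnfr+/+ (-0.01 without the 48 h array 2) and -0.87 in Tnfr-/- lungs, and 8 of 15 had a higher difference at an unadjusted p under 0.01 (0.842% of probe sets).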

How the data were processed

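The authors exposed the mice, hybridized lung RNA of 1 mouse to each MOE430A array and deposited 1 MAS5 signal intensity a probe set and array on a linear scale; the submitters' processing notes name Affymetrix Expression Console and MAS5. Steps that the study took later (a percentile filter, normalization by quantiles and scaling to air) had not been applied to the intensities as deposited. Here the 24 arrays were quantile normalized, floored at 1 and put on the log2 scale, and 20537 non-control probe sets were tested, each reaching the 20th percentile of 1 array or more. limma 3.58.1 in R 4.3.3 fitted the 8 groups of 3 together (16 residual and 2.38 prior degrees of freedom), with contrasts for the step in each genotype, the difference of the steps, and each time against air. A call is a Benjamini-Hochberg adjusted p under 0.05 over all probe sets tested. An adjusted p in the text is from this fit unless said otherwise. Of 22644 probe sets, 64 were controls, 20338 had 1 gene in the platform annotation (20309 of them updated by Entrez ID), 691 carried several genes and 1551 were absent from it. The probe set with the highest mean over the 24 arrays stands for its gene. Of the called probe sets, 6 belonged to genes represented by another probe set and 4 had no gene name.

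Genes were named by a rule: called genes above the median level and without overlap, up to 15 a direction, then the next by p, up to 6 genes a class, up to 4 a list, and genes that the article names for these times. Slc15a3, Incenp, Cks1b, Myot, Fbn2, Egr1 and Ttk fell outside it and were chosen after their values were seen. The comparison and the gene lists were chosen with earlier results of these data known, so a list's count is a description. Alternatives were other normalizations and filters, a pseudocount, fewer arrays, array weights, an intensity trend, the methods' t-test, a block for the replicate number, the mean over a gene's probe sets, and each array left out. The script of the fit was tested on simulated data. The number of arrays limits the precision.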

Additional observations from a re-analysis of the deposited data

Results flagged for a closer look

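For 4 probe sets the step from 24 to 48 h differed between the genotypes by a test of the difference itself (Tnfr+/+ step minus Tnfr-/- step, limma, adjusted p under 0.05, 0.0195% of 20537 tested). The difference was 3.11 for AA545190, which had 7.80, 18.5 and 8.18 at 24 h in Tnfr+/+ lungs and 76.0, 68.4 and 68.2 at 24 h in Tnfr-/- lungs. For Egr1 it was 2.03, for Hsph1 -3.05 and for Chordc1 -1.98, and the step within Tnfr+/+ lungs was called for AA545190 and not for these 3 genes. With the array weights 5 and with the filter at the median 7 probe sets had such a difference, and with the 12 arrays of the comparison alone 0.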

How the results depend on the processing

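Of the counts, 33 called higher and 8 lower, 353 and 226 at an unadjusted p under 0.01, 23 genes started, 7 stopped or reversed, 78 called in Tnfr-/- lungs and 4 differences of the steps, none stayed when the spread came from fewer arrays. limma on the arrays of the comparison alone gave 0 and 0 called, 214 and 116 at an unadjusted p under 0.01, 0 started, 0 stopped or reversed, 3 in Tnfr-/- lungs and 0 differences. The 12 Tnfr+/+ arrays alone gave 0 and 0, 214 and 133, 0 and 0. The methods' t-test gave 0 and 0 after adjustment, 188 and 144 at an unadjusted p under 0.01 (745 and 739 under 0.05), 0 and 0 in the classes and 0 in Tnfr-/- lungs. These fits have 4, 8 and 4 residual degrees of freedom, against 16. The filter at the median gave 56 higher, 36 started and 7 differences, array weights 65 higher, 15 lower, 37 started, 13 stopped or reversed and 212 in Tnfr-/- lungs, and the intensity trend 13 lower, 11 stopped or reversed and 9 differences. With the replicate number as a block there were 5 lower, 15 started and 51 in Tnfr-/- lungs. Same-numbered arrays had correlations of deviations of -0.00114, -0.0345 and -0.0476, against -0.0239 to 0.0494 for different numbers. No shared deviation was thus seen, but whether the mice were handled by number cannot be told from these values. Leaving out 1 array gave 13 to 32 higher, 1 to 9 lower, 278 to 352 and 123 to 286 at an unadjusted p under 0.01, 8 to 23 started, 4 to 8 stopped or reversed, 62 to 101 in Tnfr-/- lungs and 2 to 7 differences. Apart from the smaller sets of arrays, the cause of these shifts was not tested. No quantile normalization, cyclic loess and the pseudocount of 32 kept every one of these counts within 1.5 times. Of 1398 values of 74 genes, 1120 stayed on the same side of the threshold, 237 were no longer called, 41 were newly called and 0 turned direction. Of 108 list medians, those of the mitosis, DNA replication, alveolar macrophage, squamous, heat shock and smooth muscle lists under the alternatives, 0 turned. Only that of the squamous list moved by more than the list's spread within a time, to 0.127 without the 48 h array 2. The alveolar macrophage median fell from 0.65 to 0.39 there, within a spread that includes that array. Other lists were not in this count, and some of their medians, such as those of T cells, B cells and endothelial cells, turned without that array.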

Other observations

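Some of the gene groups outside the comparisons above are described here for the step from 24 to 48 h in Tnfr+/+ lungs. Of 34 genes of the mitochondrial respiratory chain 26 were higher in value (median step 0.15) and of 19 cholesterol biosynthesis genes 16 (median 0.12), against 46.3% of all genes, and none of either was called (limma) or had an unadjusted p under 0.01 by the probe set that stands for it. Hmgcs1, an early enzyme of cholesterol synthesis, had a step of 0.29 by that probe set but was called higher by another (0.81, adjusted p = 0.040), and its 2 remaining probe sets had steps of 0.67 and 0.48. Genes induced by glucocorticoids had a median step of -0.28 in Tnfr+/+ and 0.20 in Tnfr-/- lungs, with 20 of 25 lower in value in Tnfr+/+ lungs. Lcn2 was the only one of the 25 called (none without the 48 h array 2), and Tsc22d3, the glucocorticoid-induced leucine zipper, had a step of -0.98 that did not pass. Interferon response genes had a median step of -0.13 over 28 genes. Among cell types, alveolar type 1 genes had a median of -0.16 and club cell genes of -0.16, 19 of 22 club cell genes were lower in value, and endothelial and fibroblast genes were at -0.09 (0.01 and -0.12 without the 48 h array 2). T cell genes had a median step of 0.21 with the 48 h array 2 and -0.05 without it.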
